A study of Mus musculus with 6 samples.

Results

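The circles described here are the circular RNAs (circRNAs) of 9 synaptic adhesion genes of the neurexin, neuroligin and contactin families: Nrxn2, Nrxn3, Nlgn1, Cntn1, Cntn4, Cntn5, Cntnap2, Cntnap4 and Cntnap5a. A row of the deposited table was taken as a member when its listed host gene, an Ensembl mouse identifier translated to a symbol, was 1 of these genes. This rule gave 47 of the 11171 circles listed, from 8 of the 9 genes. Nrxn2 had no row, and no row lay on it by coordinates either. The study sequenced circRNAs in the cortex of male C57BL/6 mice (C57BL/6J in the study's methods) of 6 weeks, with 3 libraries per group and 1 mouse per library, to find circRNAs that are dysregulated early after seizures. TLE mice (labelled pilo) had received scopolamine methyl bromide, which blocks the peripheral effects of pilocarpine, and then pilocarpine, a muscarinic agonist, and had gone through Status Epilepticus (SE). Diazepam ended the SE, and the cortex was taken 24 h after it. Control mice had received saline in place of each injection. The mice carried no engineered allele, and TLE here means the first day after SE and not chronic epilepsy. Nothing in the labels says whether mice shared a litter or a day, so the p-values measure the spread between these 6 libraries only.

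Neurexins are presynaptic membrane proteins that bind postsynaptic partners such as the neuroligins, and these pairs help to organize synapses. Contactins are adhesion molecules of the immunoglobulin superfamily that are held in the membrane by a lipid anchor, and the contactin-associated proteins (Cntnap genes) are transmembrane relatives of the neurexins, some of which pair with contactins on axons. A circRNA forms when the 3′ end of an exon (the donor) is joined back to the 5′ end of the same exon or of one upstream (the acceptor), and brain is rich in circRNAs of long neuronal genes.

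The sequences across the back-spliced junction are what the reads of a circle must hold. They are shown for the 2 leading Nlgn1 circles, which share an acceptor and differ in their donor, and for the circle with the highest mean level of each of 4 other hosts. In each line the capitals are the last 15 bases before the junction, on the donor side, and the lower case letters are the first 15 bases after it, on the acceptor side. All are written 5′ to 3′ on the strand of the host, from GENCODE M21 transcripts of mouse build GRCm38.
Nlgn1 mmu_circ_0006709, chr3:26132744-26134052, minus strand: TATGTAGAAAAGGAGgatatagacccactg
Nlgn1 mmu_circ_0006712, chr3:26133242-26134052, minus strand: TCCCAACTGAAGATGgatatagacccactg
Nrxn3 mmu_circ_0001715, chr12:89187022-89193207, plus strand: GGCTGCCTTAAAGAGcacgagaggagaacg
Cntn5 mmu_circ_0010187, chr9:10144089-10172122, minus strand: CTCTTCAGTTTGCCTattactctgaagctc
Cntnap2 mmu_circ_0008736, chr6:46009502-46015488, plus strand: TTGACATCTCCTCAGataacatttggaggc
Cntnap5a mmu_circ_0004681, chr1:116428472-116455217, plus strand: TGCTCTCCAGGAATGggcaaatgatactgg

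The 2 Nlgn1 donors can also be shown with the bases that follow them in the transcript with a retained intron, Nlgn1-204, where the capitals mark the GT after the last base of the circle. The program that called the circles (CIRI) requires GT and AG next to the junction, so the GT is fixed by the method.
Nlgn1 near donor (mmu_circ_0006712): tcccaactgaagatgGTgagttcat
Nlgn1 far donor (mmu_circ_0006709): tatgtagaaaaggagGTatgtatga

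Expression was given in SRPBM, the normalized spliced-read unit, a signal that scales the reads across a circle's junction by how many reads the library had mapped. Within a library every value was a whole multiple of 1 step, to within 0.1 step, and no value between 0 and 2 steps was listed. The read numbers given here rest on taking a step, which was between 8.55 and 10.3 SRPBM, as 1 read. The Control libraries held between 35598 and 41797 junction reads, and the TLE libraries between 32504 (TLE 1) and 56516 (TLE 3). A value of 3 reads, between 25.6 and 31.0 SRPBM, is the limit that a count of 0 allows, and this limit covers counting error only. A 0 is given as listed at 0. It can also stand for 1 read, as no value of 1 step is listed, or for a junction that the filters did not keep. For a 0 that stands for 1 read the limit is higher than 3 reads. Each circle is read at 1 junction, so its level does not grow with its length, but the sum for a host grows with the number of its circles that were listed. Of the marker genes examined, circles were listed for 5 of 10 neuronal and 3 of 6 cortical projection neuron genes, for 1 of 5 astrocyte genes, and for none of 6 oligodendrocyte, 4 microglial and 4 endothelial genes. The summed SRPBM of the neuronal markers ranged from 3982 to 4407 in Control and from 4276 to 5893 in TLE, and that of the projection neuron markers from 181 to 239 and from 62.0 to 190. The part of these differences in the values below was not tested, and in tissue of this kind fewer cells of a type and less RNA per cell cannot be told apart.

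The members were mostly rare circles, and 1 gene carried most of their reads. The 47 circles held 784 junction reads over the 6 libraries, with a median of 5 reads per circle, which is also the median over all 11171 circles. Nlgn1, a postsynaptic neuroligin, had 410 of these reads from 7 circles. Cntn5, a contactin, had the most circles (12) and 148 reads, and Nrxn3, a neurexin, had 9 circles and 98 reads. Cntnap2 followed with 47 reads from 3 circles, Cntnap5a with 43 reads from 6, Cntnap4 with 22 reads from 5 and Cntn1 with 13 reads from 4. Cntn4 was listed with a single circle of 3 reads. The 2 leading Nlgn1 circles alone held 42.2% of the members' reads. Of the 47 circles, 21 (44.7%) were seen in a single library and 5 (10.6%) in all 6, against 45.4% and 13.9% of all circles listed.

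**Figure D1:**
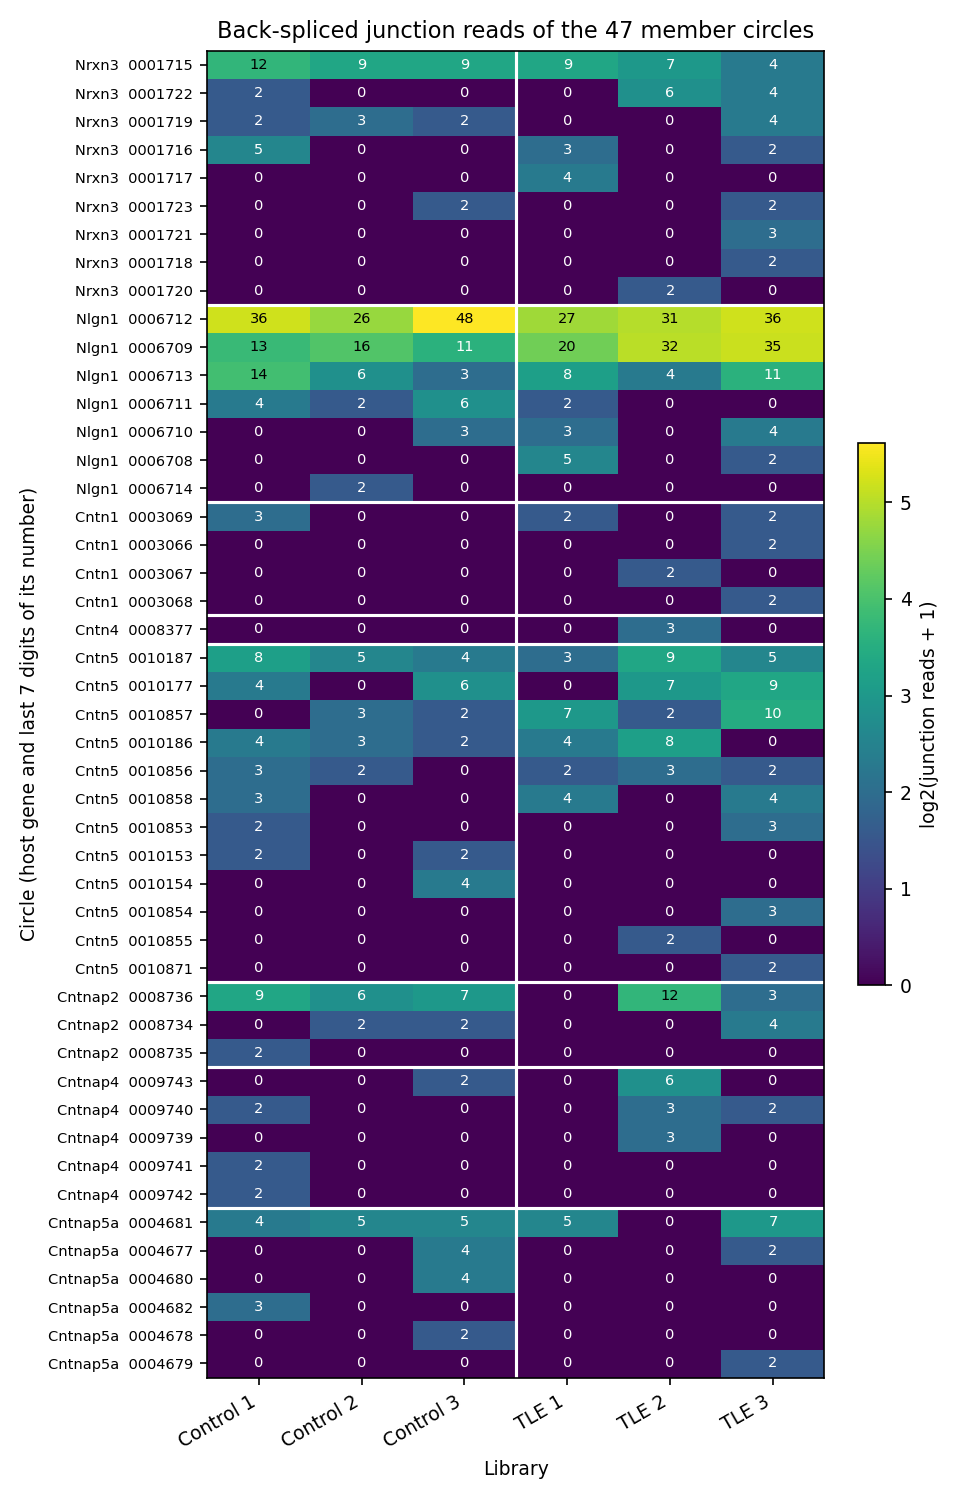
Junction reads of the 47 member circles (rows, grouped by host gene) in the 6 libraries (columns); the number in each cell is the reads and the colour is log2(reads + 1). The Nlgn1 circles mmu_circ_0006712 and mmu_circ_0006709 had between 11 and 48 reads in every library, while 21 circles were seen in 1 library only.

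The circles lay on annotated exons for the most part, with Nlgn1 as the exception. In 38 of the 47 circles (80.9%, 95% Wilson interval 67.5 to 89.6%) both ends were exon boundaries of the host, against 90.9% of the 10273 circles with a single listed host. Of the 9 exceptions, 5 were Nlgn1 circles. All 12 Cntn5 circles, all 6 of Cntnap5a and all 4 of Cntn1 had both ends on boundaries. The 38 circles held a median of 4 exons, as did all placed circles, and 27 of them (71.1%, against 61.9%) held between 2 and 5 exons. The ends lay a median of 27352 bases apart in the members and 14736 in all circles. Of the member circles, 4 (8.51%, against 4.50% of all circles) spanned more than 100 kb. All of these were Cntn5 circles, the longest of 188060 bases. The start codon of the host lay within 9 member circles (19.1%, against 24.0% of circles with a single host), of which 6 were Nlgn1, 2 were Nrxn3 and 1 was a Cntn1 circle. Ends were reused: 35 of the 47 circles shared an outer end with another member.

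The number of member circles detected overlapped between the groups. There were 23, 14 and 21 member circles in Control replicates 1, 2 and 3 and 16, 18 and 29 in TLE replicates 1, 2 and 3. The means of 19.3 ± 4.73 (SD, n = 3) and 21 ± 7 (SD, n = 3) differed by less than the spread within either group. TLE 3, the library with the most junction reads, had the most member circles, and among all circles it also had the most (5976, against 3989 to 5052 in the other libraries). Members with at least 3 reads numbered 15, 10 and 13 in Control and 13, 14 and 17 in TLE. They took 0.343%, 0.253% and 0.311% of the junction reads of the Control libraries and 0.332%, 0.304% and 0.306% of those of the TLE libraries. Control 2 was the lowest, with a 95% Wilson interval of 0.206 to 0.311%, and the TLE libraries lay within the Control range.

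Circles that were listed in a single group were mostly read in 1 mouse. Of the members, 14 were at 0 in all Control libraries, and 7 of these were seen in TLE 3 only, 5 in TLE 2 only and 1 in TLE 1 only. The remaining 1, the Nlgn1 circle mmu_circ_0006708, had 5 reads in TLE 1, none in TLE 2 and 2 in TLE 3. A further 9 members were at 0 in all TLE libraries, and 8 of these were seen in 1 Control library. No member was read in all 3 mice of a group while missing from all 3 of the other group. The same counts over all circles were not made, so 14 and 9 are not read as a result about the members. TLE 3 was also the library with the most junction reads.

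Each circle above 0 in at least 3 libraries was compared between TLE and Control with limma, on log2(SRPBM + 17.1), the lowest listed value serving as the pseudocount. Calls needed a log2 fold change of 1.5 or more in size and an unadjusted p under 0.05, the size and p that the study used. Log2 fold changes are on this scale, TLE over Control, and understate the change of circles with few reads. Of the 47 members 20 could be tested, and none was called in either direction. Over all 4271 circles tested, 1.26% were called higher and 0.304% lower. An unadjusted p under 0.05 was reached by 1 member, and by 5.2% of all circles. None of the 4271 circles tested passed 0.05 after Benjamini-Hochberg adjustment, where the smallest adjusted p was 0.838 (limma). The log2 fold change was above 0 in 12 members and below 0 in 8, with a median of 0.19, against 0.17 over all circles tested. With the libraries rescaled to 1 total, these medians were 0.08 and 0.01, 10 members lay on each side of 0, and the calls over all circles went from 54 higher and 13 lower to 37 and 25. In 1 of the 20 members all TLE values lay above all Control values, as they did in 8.94% of the circles tested, and in none did they lie below, as they did in 2.11%.

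**Figure D2:**
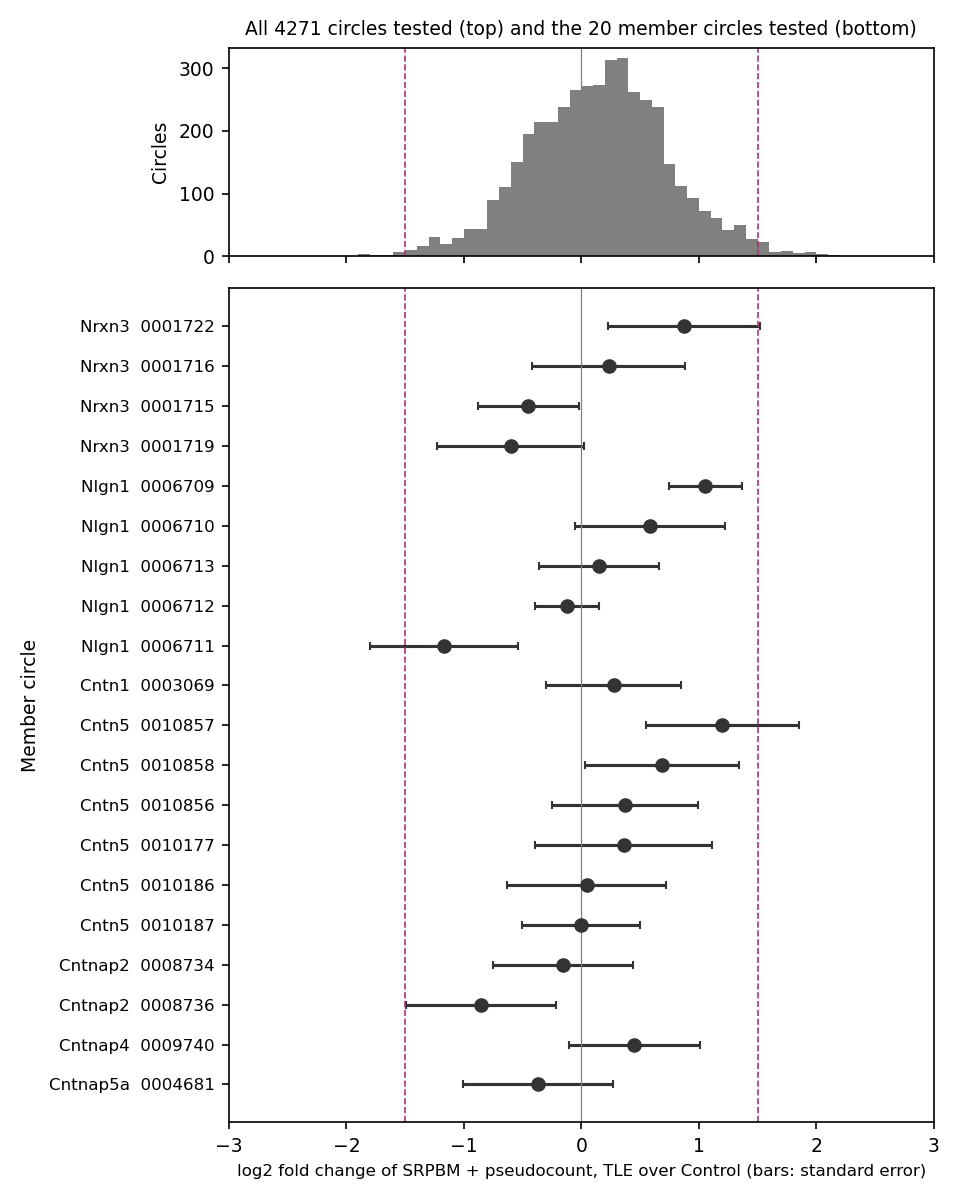
Log2 fold changes (TLE over Control, with the pseudocount of 17.1 SRPBM) of all 4271 circles tested, as a histogram in steps of 0.1 (top), and of the 20 member circles tested, with standard errors from limma (bottom). The dashed lines mark the size of 1.5 required for a call, and every member lies between them, with Nlgn1 mmu_circ_0006709 at 1.05 and mmu_circ_0006711 at -1.17.

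Summed over the circles of a host, none of the 7 member hosts tested was called or reached an unadjusted p under 0.05 (limma over 2157 hosts; the smallest p was 0.0819, for Cntn5). Over all hosts tested, 1.53% were called higher, 0.371% lower and 6.17% had an unadjusted p under 0.05. In no member host did the groups lie apart. TLE lay above Control in 10.7% of all hosts and below it in 1.95%. The summed log2 fold change was above 0 for Nlgn1, Nrxn3, Cntn1, Cntn5 and Cntnap4 and below 0 for Cntnap2 and Cntnap5a.

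**Figure D3:**
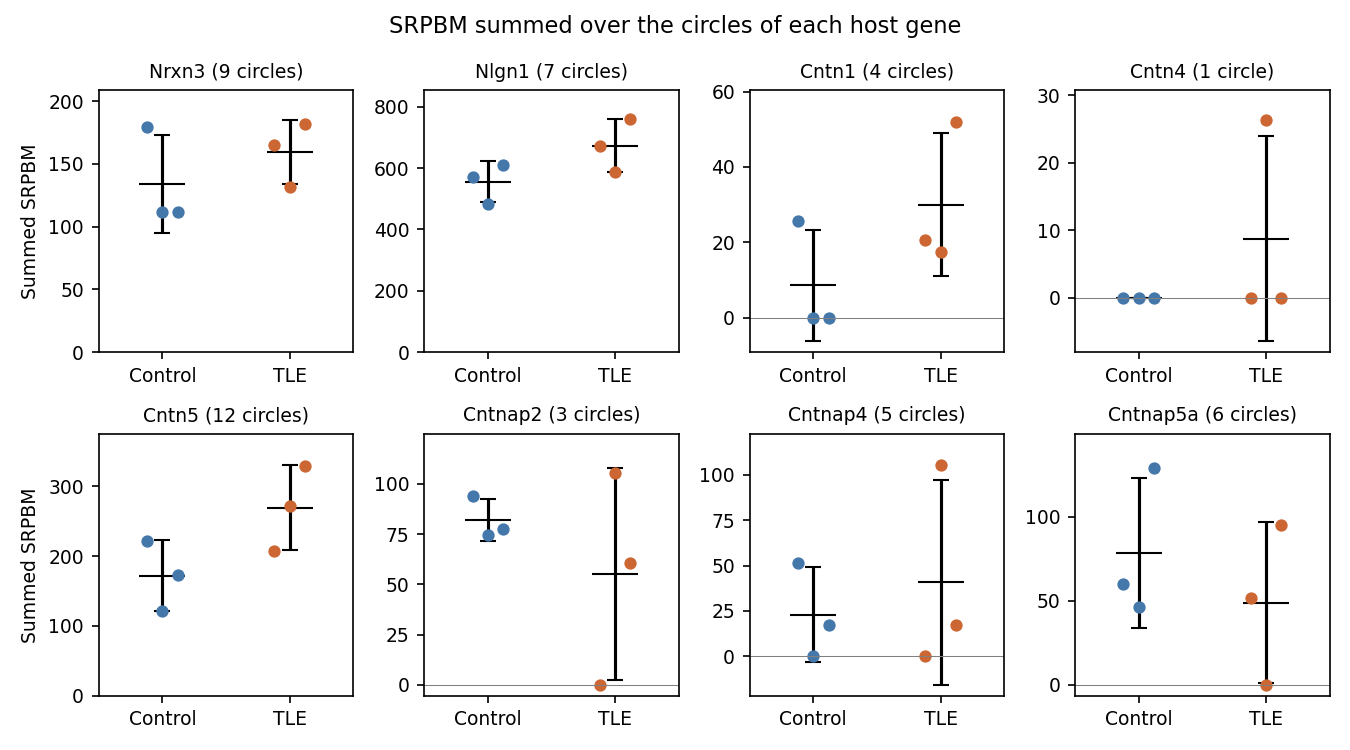
SRPBM summed over the circles of each host, per library (points), with the mean (horizontal line) and SD (bars, which can reach below 0) of the 3 libraries of each group; each panel has its own scale. The groups overlap in all 8 hosts. Listed at 0 are Cntnap2 in TLE 1, Cntnap5a in TLE 2, and Cntnap4 in Control 2 and TLE 1. So are Cntn1 in Control 2 and Control 3, and Cntn4 in all libraries but TLE 2.

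Nlgn1, which encodes a neuroligin found mainly at excitatory synapses, was the only neuroligin among the members. Its summed SRPBM was 573, 483 and 612 in the Control libraries and 671, 587 and 761 in the TLE libraries. The lowest TLE library lay below the highest Control library, so the groups overlapped. The means were 555.9 ± 65.7 and 673 ± 87.0 (SD, n = 3 each). The log2 fold change was 0.27 with a standard error of 0.24 (limma p = 0.278, adjusted p = 0.891; two-sided exact permutation test of the means, p = 0.2). With the libraries rescaled to 1 total it was 0.048, without Control 2 it was 0.17 and without TLE 3 it was 0.18. With 3 libraries in each group, an exact permutation test cannot go below p = 0.1.

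The gene (chromosome 3, 25426215 to 26332460, minus strand) gave 6 of its 7 circles from 1 place. These 6 were the combinations of 2 donors with 3 acceptors around the exon that holds the start codon. The nearer donor, at position 26133242, is the annotated end of that exon. The farther donor, at 26132744, lies 498 bases downstream and is no exon end in the annotation. It falls inside the long exon of the retained-intron transcript Nlgn1-204 (26131670 to 26134052). The most used acceptor, at 26134052, begins that exon in the transcripts Nlgn1-203 and Nlgn1-205. A further acceptor, at 26135389, lies 1337 bases upstream of it and is not annotated, and the third, at 26184811, begins an upstream exon of Nlgn1-205 and Nlgn1-204.

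The circle with the highest level was mmu_circ_0006712, the near donor joined to the most used acceptor, whose junction is shown above. It is a single annotated exon of 811 bases, of which 493 are coding and 318 are 5′ untranslated. It had 36, 26 and 48 reads (308, 242 and 413 SRPBM) in Control and 27, 31 and 36 reads (279, 272 and 312 SRPBM) in TLE. The TLE values all lay within the Control range. Their log2 fold change was -0.12 with a standard error of 0.27 (limma p = 0.659; exact permutation test, p = 0.8).

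The circle of the far donor and the same acceptor, mmu_circ_0006709, had the smallest p of the members. It had 13, 16 and 11 reads (111, 149 and 94.7 SRPBM) in Control and 20, 32 and 35 reads (207, 281 and 303 SRPBM) in TLE. All 3 TLE libraries lay above all 3 Control libraries. The means were 118.2 ± 27.7 and 263 ± 50.4 SRPBM (SD, n = 3 each), a ratio of 2.23. The log2 fold change was 1.05 with a standard error of 0.31 (limma p = 0.00362, adjusted p = 0.838; exact permutation test, p = 0.1, the smallest the design allows). It was below the size of 1.5 required for a call. With the libraries rescaled to 1 total it was 0.85, and with 1 library left out at a time it lay between 0.93 and 1.21. Between its ends lie 1309 bases, and 498 of these are outside the exons of the coding transcripts.

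The other Nlgn1 circles were rarer. The circle mmu_circ_0006713, of the near donor and the unannotated acceptor, had 14, 6 and 3 reads in Control and 8, 4 and 11 in TLE. The groups overlapped widely, and the log2 fold change of 0.15 (standard error 0.51, limma p = 0.774; exact permutation test, p = 0.9) was -0.025 with the libraries rescaled. The circle mmu_circ_0006711, of the far donor and the third acceptor, is named because of its values. It had 4, 2 and 6 reads in Control, 2 in TLE 1 and none in TLE 2 and TLE 3, a log2 fold change of -1.17 (standard error 0.63, limma p = 0.0811; exact permutation test, p = 0.2). Without TLE 1 it was called lower, with -1.55. The circle mmu_circ_0006710, of the far donor and the unannotated acceptor, had 3 reads in Control 3, 3 in TLE 1 and 4 in TLE 3, and mmu_circ_0006714 had 2 reads in Control 2 only. The 2 far-donor circles with the most reads thus had log2 fold changes of opposite sign.

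**Figure D4:**
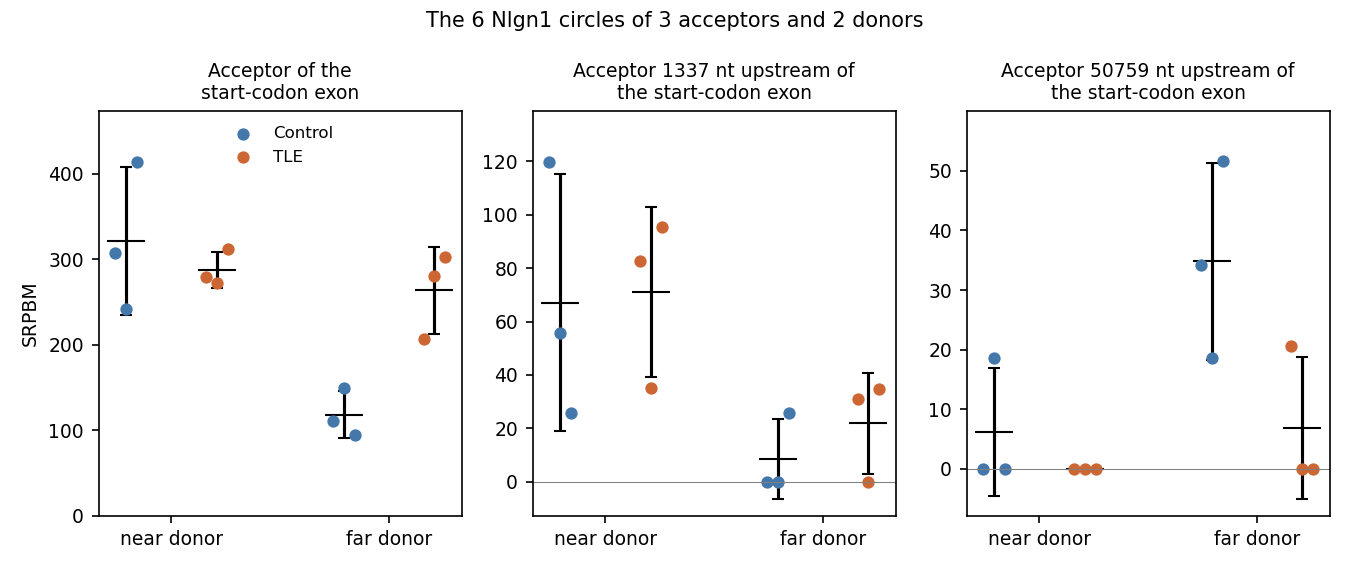
SRPBM of the 6 Nlgn1 circles made by 2 donors (horizontal axis) and 3 acceptors (panels), per library (points: Control on the left and TLE on the right of each pair), with the mean (line) and SD (bars, which can reach below 0) of 3 libraries; the panels have different scales. At the most used acceptor the near-donor circle overlaps between the groups, while the far-donor circle lies at 94.7 to 149 SRPBM in Control and at 207 to 303 in TLE.

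The share of reads at the far donor was looked at after these values were seen, so it is given as a description with no test. A share within a library does not depend on the scaling of the library. Among the reads of the most used acceptor, the far donor took 26.5%, 38.1% and 18.6% in Control (of 49, 42 and 59 reads) and 42.6%, 50.8% and 49.3% in TLE (of 47, 63 and 71 reads). The groups lay apart, although the intervals of single libraries overlapped, as for Control 2 (25.0 to 53.2%) and TLE 1 (29.5 to 56.7%, 95% Wilson). The means were 27.8 ± 9.78% and 47.5 ± 4.39% (SD, n = 3 each), a difference of 19.8 percentage points that lay between 15.2 and 25.0 with each library left out in turn. Over all 3 acceptors the far donor took 25.4%, 34.6% and 28.2% in Control and 41.7%, 47.8% and 45.3% in TLE. At the less used acceptors alone the shares were 22.2%, 20% and 75% of 18, 10 and 12 reads in Control and 38.5%, 0% and 26.7% of 13, 4 and 15 reads in TLE, and the groups overlapped. Among the 354 pairs of circles in the table that share an acceptor and were both above 0 in all 6 libraries, the shares of the groups lay apart in 8.47%, in either direction.

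**Figure D5:**
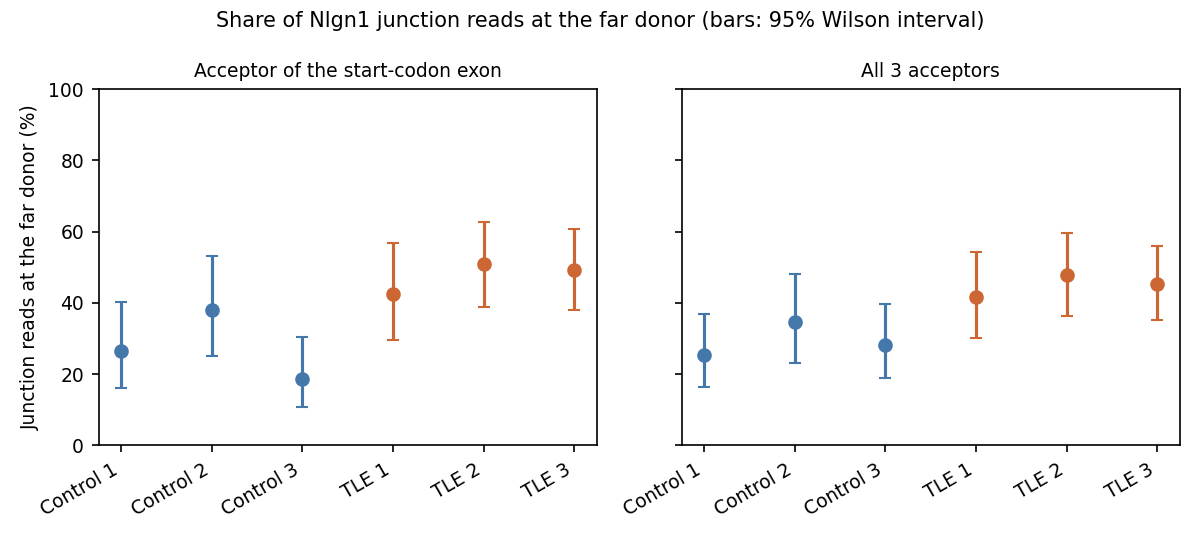
Percent of Nlgn1 junction reads at the far donor in each library (points), with 95% Wilson intervals (bars, counting error only), at the acceptor of the exon with the start codon (left) and over all 3 acceptors (right). At the left, Control lies between 18.6% and 38.1% and TLE between 42.6% and 50.8%.

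By the rule set for likeness, the hosts whose log2 summed SRPBM followed that of Nlgn1 most closely over the 6 libraries were Lcor (r = 0.978), Usp54 (r = 0.978) and Rfx3 (r = 0.976), out of 1188 hosts above 0 in every library. The 6 points share their libraries and depth, and the values are a description of them.

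Nrxn3 (chromosome 12, 88722876 to 90334935, plus strand) was the only neurexin among the members with circles. Its summed SRPBM was 179, 112 and 112 in Control and 165, 132 and 182 in TLE, with overlapping groups. The log2 fold change of the sum was 0.24 (standard error 0.36, limma p = 0.516; exact permutation test, p = 0.3), and 0.039 with the libraries rescaled. Without Control 1 it was 0.44, and without Control 2, Control 3 or TLE 3 it was 0.14, 0.14 or 0.15. Its main circle, mmu_circ_0001715, runs from exon 2 to exon 3 of Nrxn3-213, holds the start codon in 464 bases of exon, and made up 51.0% of the reads of the gene. It had 12, 9 and 9 reads (103, 83.7 and 77.5 SRPBM) in Control and 9, 7 and 4 reads (93.0, 61.4 and 34.6 SRPBM) in TLE. TLE 1 lay between the Control libraries and TLE 2 and TLE 3 lay below them. This gave a log2 fold change of -0.45 (standard error 0.43, limma p = 0.311; exact permutation test, p = 0.3), with the sign opposite to that of the sum. Without TLE 3 it was -0.17 and without TLE 1 it was -0.71. The longer circle mmu_circ_0001716 shares its acceptor and ends at exon 5, and had 5 reads in Control 1, 3 in TLE 1 and 2 in TLE 3. Further downstream, mmu_circ_0001719 (exons 8 to 13) had 2, 3 and 2 reads in Control and 0, 0 and 4 in TLE. At the 3′ side of the gene, mmu_circ_0001722 had 2, 0 and 0 reads in Control and 0, 6 and 4 in TLE. Neither was called, with log2 fold changes of -0.60 and 0.87 and standard errors of 0.63 and 0.65. The remaining 5 Nrxn3 circles had between 2 and 4 reads in all.

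Cntn5 (chromosome 9, 9660891 to 10904775, minus strand) had the largest shift of a host sum among member hosts above 0 in all 6 libraries. It did not pass the test. Cntn1, Cntnap2 and Cntnap5a, each listed at 0 in some library, had shifts larger in size (log2 fold changes of 0.95, -0.86 and -0.81). The Cntn5 sums were 222, 121 and 172 SRPBM in Control and 207, 272 and 329 in TLE. TLE 1 lay below Control 1, and the other TLE libraries lay above all Control libraries. The means were 172 ± 50.7 and 269 ± 61.2 SRPBM (SD, n = 3 each), a ratio of 1.57, and the log2 fold change was 0.61 (standard error 0.33, limma p = 0.0819, adjusted p = 0.834; exact permutation test, p = 0.2). The log2 fold change was 0.40 with the libraries rescaled and also without Control 2. With 1 library left out at a time it lay between 0.40 and 0.80, and was highest without Control 1. Without TLE 1 it was 0.78, which met the unadjusted p required for a call but not the size. No other setting met that p for this sum. The reads were spread over many circles, and the highest held only 23.0% of them.

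The Cntn5 circles fell into a pair of clusters along the gene. In the upstream cluster, 5 circles shared the acceptor of exon 4 of Cntn5-202, at 10172122, and ended at exons 6 to 10. The highest of them, mmu_circ_0010187 (exons 4 to 6, 519 bases of exon), had 8, 5 and 4 reads (68.4, 46.5 and 34.5 SRPBM) in Control and 3, 9 and 5 reads (31.0, 78.9 and 43.3 SRPBM) in TLE. The groups covered the same range, and the log2 fold change was -0.00 (standard error 0.50, limma p = 0.996; exact permutation test, p = 1). In the downstream cluster, 3 circles shared the donor of exon 12 of Cntn5-205. Of these, mmu_circ_0010857 (exons 10 to 12) is named because of its values, 0, 3 and 2 reads in Control and 7, 2 and 10 reads in TLE. Its log2 fold change was 1.20 (standard error 0.65, limma p = 0.0832; exact permutation test, p = 0.2), and without TLE 2, the TLE library within the Control range, it was called higher with 1.69. The circle mmu_circ_0010858, which ends at the same donor, had 3, 0 and 0 reads in Control and 4, 0 and 4 in TLE, and mmu_circ_0010856 had 3, 2 and 0 against 2, 3 and 2.

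Cntn1 and Cntn4, the other contactins, were near the limit of the libraries. The main Cntn1 circle, mmu_circ_0003069 (exons 16 to 23 of Cntn1-204), had 3 reads in Control 1, 2 in TLE 1, 2 in TLE 3 and none elsewhere, with a log2 fold change of 0.28 (standard error 0.57, limma p = 0.636; exact permutation test, p = 1) that lay between 0.056 and 0.72 with a library left out. The other 3 Cntn1 circles had 2 reads each, all in TLE 2 or TLE 3. The sum for Cntn1 was 25.6, 0 and 0 SRPBM in Control and 20.7, 17.5 and 51.9 in TLE, so that most of its values were under the floor of 3 reads. The Cntn4 circle mmu_circ_0008377 (exons 12 to 15 of Cntn4-211) had 3 reads in TLE 2 and was listed at 0 in the other 5 libraries, which was too few to test.

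Among the contactin-associated genes, the sums for Cntnap2 and Cntnap5a were lower in TLE than in Control on average, and in each case 1 TLE library was listed at 0. Cntnap2 encodes Caspr2, which takes part in clustering potassium channels on axons. Its sums were 94.0, 74.4 and 77.5 SRPBM in Control and 0, 105 and 60.6 in TLE. TLE libraries lay on either side of the Control range, and the log2 fold change was -0.86 (standard error 0.64, limma p = 0.196; exact permutation test, p = 0.5). Without TLE 1 it was -0.018, and without TLE 2 it was -1.44. Its main circle, mmu_circ_0008736 (exons 7 and 8 of Cntnap2-202, 409 bases), had 9, 6 and 7 reads (76.9, 55.8 and 60.3 SRPBM) in Control and 0, 12 and 3 reads (0, 105 and 26.0 SRPBM) in TLE. For this circle the log2 fold change was -0.85 (standard error 0.64, limma p = 0.198; exact permutation test, p = 0.5). It rested on 1 library in either direction: without TLE 2 it was -1.58 and the circle was called lower, and without TLE 1 it was -0.16. TLE 1 was the shallowest library, and its floor of 3 reads was 31.0 SRPBM, below every Control value of this circle. That floor takes the listed 0 as a count of 0, and the limit is higher if the 0 stands for 1 read.

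Cntnap5a gave sums of 59.8, 46.5 and 129 SRPBM in Control and 51.6, 0 and 95.2 in TLE, which overlapped (log2 fold change -0.81, standard error 0.66, limma p = 0.234; exact permutation test, p = 0.5). Without TLE 2 the sum gave -0.026, without Control 3 it gave -0.46 and without TLE 3 it gave -1.38. Its main circle, mmu_circ_0004681 (exons 15 to 19, 983 bases of exon), had 4, 5 and 5 reads (34.2, 46.5 and 43.1 SRPBM) in Control and 5, 0 and 7 reads (51.6, 0 and 60.6 SRPBM) in TLE. The TLE libraries with reads lay above the Control libraries and TLE 2 was listed at 0. Its log2 fold change was -0.37 (standard error 0.64, limma p = 0.573; exact permutation test, p = 1), and without TLE 2 it was 0.33. The donor of exon 19 was shared by 3 of the 6 Cntnap5a circles. Cntnap4 gave sums of 51.3, 0 and 17.2 SRPBM in Control and 0, 105 and 17.3 in TLE. Its log2 fold change was 0.28 (standard error 0.76, limma p = 0.714 and exact permutation test p = 0.7). Without TLE 2 it was -0.50, and without Control 2 it was -0.22. The main Cntnap4 circle, mmu_circ_0009743, has a donor that is not annotated as an exon end of the gene, and had 2 reads in Control 3, 6 in TLE 2 and none in the other libraries. The 5 Cntnap4 circles were each read in 1 to 3 libraries.

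The same fits were read for related genes outside the members. Of 11 other genes, which were members of these families and Nfasc, 5 had circles (30 in all), and none of the 13 circles tested was called. Of 40 other trans-synaptic adhesion and organizer genes, 14 had circles, and 2 of the 40 circles tested were called higher and none lower, against 1.26% and 0.304% of all circles tested. These were circles of Ptprd, a presynaptic receptor phosphatase (mmu_circ_0007530; 0, 2 and 0 reads in Control and 6, 8 and 5 in TLE; log2 fold change 1.77), and of Adgrl3, a latrophilin (mmu_circ_0008294; none in Control and 4, 3 and 4 in TLE), each with an adjusted p of 0.838 (limma). Both circles reached the 3 libraries of the filter only through the TLE libraries, where they are high, so their calls are a description and no support. Of 8 cytoplasmic partners of neurexins and neuroligins, 7 had circles, and none of the 16 circles tested was called. At the level of host sums none of the 4, 12 and 5 genes tested in these lists was called.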

How the data were processed

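Cortex total RNA of 3 Control and 3 TLE mice was depleted of ribosomal RNA (Ribo-Zero) and made into directional libraries, 1 per mouse. The authors removed low-quality and ribosomal reads, called circRNAs with CIRI on BWA-MEM alignments to mm10 (versions not given in the sources used here) and deposited SRPBM, a normalized signal. The authors tested their circles with DESeq2. The 1 deposited table was present 6 times and was read once. Its values came out as whole multiples of a step in 100% of cases (tolerance 0.1 step), with 2 steps as the smallest, so counts are inferred and no count test was run.

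Values were read with Python 3.11.15 and pandas 2.3.3. Host identifiers were matched to symbols for 3466 of 3469 hosts; 837 rows had no listed host and 61 had several, and none of these was counted as a member. By coordinates there would be 51 members. Ends were placed on GENCODE M21 exons (GRCm38). limma 3.58.1 (R 4.3.3, eBayes with trend) was fitted to log2(SRPBM + 17.1) over all circles, or over all host sums, above 0 in at least 3 libraries. Benjamini-Hochberg adjustment covered all features. The fit was also run on simulated reads with counting error only, where changes were placed in circles with many reads. That run does not cover circles with few reads, as most members are. Calls needed a log2 fold change of 1.5 and an unadjusted p under 0.05, as the study does not state an adjustment. The members, gene lists and tests were chosen with earlier results of these data known. Named in full were, by rule, the circle with the highest mean of each host, circles above 0 in all 6 libraries, called circles and circles whose groups did not overlap, and the 3 hosts most like Nlgn1. Alternatives changed the pseudocount, the filter, the scaling, the trend, the block, the threshold and the libraries. The design planned count tests on recovered reads; these were not run. The precision is that of few reads: a count of 0 allows up to 25.6 to 31.0 SRPBM, counting error only. A listed 0 can also be 1 read and then allows more. Without molecular identifiers several reads can stem from 1 molecule.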

Additional observations from a re-analysis of the deposited data

How the results depend on the processing

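No member host was called under any alternative run. The number of member circles called higher in TLE was 0, and 1 at a log2 fold change of 1 (Nlgn1 mmu_circ_0006709); with each library left out in turn it lay between 0 and 1, and the number called lower also between 0 and 1. The log2 fold change of Nlgn1 mmu_circ_0006713 was -0.025 after rescaling and changed sign with a library left out (-0.26 to 0.58), as did those of Nlgn1 mmu_circ_0006712 (-0.30 to 0.069), Cntn5 mmu_circ_0010187 (-0.28 to 0.22), Cntnap5a mmu_circ_0004681 (-0.76 to 0.33) and the Cntnap4 sum (-0.50 to 0.92); the cause was not tested. Of the recomputed values, 154 with all libraries and 119 with a library left out were labelled as unchanged. Of these, tested values kept their direction and their side of the threshold. Values without a test moved by less than the spread between replicates, and counts stayed equal or close. With all libraries 1 value reversed, 1 count of calls changed and 1 value became a call. With a library left out these were 9, 3 and 1, the last being Cntnap2 mmu_circ_0008736. The circles Nlgn1 mmu_circ_0006711 and Cntn5 mmu_circ_0010857, called without TLE 1 and without TLE 2, were not followed as single values. They enter only through the counts of calls. The threshold, filters, trend and block leave a log2 fold change as it is, so its direction could not change there. Some values without a test changed sign and still counted as unchanged. The difference in detected member circles (TLE minus Control, 1.67) lay between -2.33 and 4.17 with a library left out, and was 2 at 3 or more reads. That in the share of junction reads (0.012 percentage points) lay between -0.0127 and 0.0323. Over all circles, the calls of 54 higher and 13 lower became 150 and 46 at a log2 fold change of 1, 121 and 47 with the pseudocount halved, 88 and 42 with a pseudocount of 1 SRPBM, and 62 to 104 higher and 13 to 49 lower with a library left out; over hosts, the 33 and 8 became 91 and 18, 60 and 17, 38 and 13, and 35 to 59 and 5 to 22, and 27 and 4 under the filter on the mean. Without a filter 9 circles of the table, none of them a member, passed 0.05 after adjustment. Replicate numbers 1 to 3 are shared by the groups, and the labels do not say whether they pair mice. The deviations of same-numbered libraries had correlations of 0.0192, 0.0139 and 0.0103. Those of differently numbered libraries lay between -0.0242 and 0.00922. With the replicate block 0 members were called, and mmu_circ_0006709 had an unadjusted limma p of 0.00446, and over the settings run its p lay between 0.00241 (without TLE 1) and 0.0328 (eBayes without trend). Count tests with edgeR and DESeq2 were not run, since no deposited value is 1 read and whole reads could not be established for the table. At the depth of these libraries a count of 0 allows up to 3 reads, and a listed 0 that stands for 1 read allows more. Of the 47 members, 21 were seen in 1 library.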
